A study of Mus musculus with 2 samples.

Results

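The keratin genes described here are the protein-coding genes whose GENCODE mouse symbol is Krt followed by a digit, the keratin-associated proteins (Krtap) left out. By this rule 53 of the 43346 genes in the tables were keratins, of 21474 protein-coding genes in all. Krt74 is classed as a pseudogene in GENCODE M21, so it was not counted among them, and it stood at 0.02 TPM in replicate 1 and 0 in replicate 2. In thymus from C57BL/6J mice aged 8 weeks, keratin transcripts came mostly from 5 genes. They were a pair of simple-epithelium genes, Krt8 and Krt18, and 3 genes classed here as basal, Krt17, Krt5 and Krt14. The class is named for the basal layer of stratified epithelia. Together these 5 genes held 93.0% of keratin TPM in replicate 1 and 92.4% in replicate 2.

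The data are 2 libraries, biological replicates 1 and 2 of a single group, each from thymus pooled from male and female littermates of the inbred strain C57BL/6J. The libraries are stranded and paired-end, with reads of 76 bases, from poly(A)-selected RNA depleted of ribosomal RNA. Depth, as estimated fragments over all features, was 49.3 M for replicate 1 and 63.1 M for replicate 2. The labels tie both to the same donor entry, so the spread between them may be partly technical, and with n = 2 every SD rests on 1 difference. No treatment, genotype or age was compared, so the account below gives levels, and the differences between these libraries. Levels are in TPM, a length-scaled transcript abundance that the authors deposited for each gene.

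Keratins are the intermediate filament proteins of epithelial cells. Acidic type I keratins pair with basic type II keratins, and neither type builds filaments alone, so epithelia are known by the pairs they use: Krt8 with Krt18 in simple epithelia, Krt5 with Krt14 in basal layers, Krt1 with Krt10 in cornifying layers, and a separate set of pairs in the hair shaft and its sheaths. In the thymus, epithelial cells form a meshwork that selects developing T cells, and antibodies to Krt8 and Krt5 are commonly used to mark its cortex and medulla. Medullary epithelial cells are also known to include cells that resemble cornified skin, and, as a population, to transcribe genes of many other tissues at low levels.

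Of the 53 keratins, 27 are type I and 25 are type II, and Krt222 was given no type. They lie in 2 clusters in GRCm38: 27 genes on chromosome 11 between 99232761 and 100269871 (1040 kb), all on the minus strand, and 26 on chromosome 15 between 101347444 and 102032027 (685 kb). The chromosome 15 cluster holds the type II genes and a lone type I gene, Krt18, at its end beside Krt8. Krt8 (minus strand) and Krt18 (plus strand) are transcribed away from each other, with 23697 bases between their GENCODE starts.

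Start regions and a run of coding sequence are shown first, because they bear on which members can be told apart and on what the family shares. RefSeq start windows, 250 bases before to 50 bases after the RefSeq start (build GRCm38.p6), were found for 36 of the 53 keratins, 37 windows in all. Of these, 25 starts lay within 10 bases of the start of a GENCODE M21 coding transcript of the gene and 12 lay farther off, by up to 1518 bases for Krt14. Windows of 4 keratins are printed here 5′ to 3′ on the gene's own strand, with every ATAAA in capitals. They are Krt8 (chr15:102004293-102004592, minus strand), Krt18 (chr15:102027966-102028265, plus strand), Krt5 (chr15:101712856-101713155, minus strand) and Krt10 (chr11:99389315-99389614, minus strand).
Krt8: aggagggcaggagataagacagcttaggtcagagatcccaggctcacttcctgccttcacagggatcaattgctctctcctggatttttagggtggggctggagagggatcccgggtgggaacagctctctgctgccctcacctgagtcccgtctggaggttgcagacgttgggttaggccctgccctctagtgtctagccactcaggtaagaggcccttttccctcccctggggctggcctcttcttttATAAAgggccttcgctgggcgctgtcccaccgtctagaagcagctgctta
Krt18: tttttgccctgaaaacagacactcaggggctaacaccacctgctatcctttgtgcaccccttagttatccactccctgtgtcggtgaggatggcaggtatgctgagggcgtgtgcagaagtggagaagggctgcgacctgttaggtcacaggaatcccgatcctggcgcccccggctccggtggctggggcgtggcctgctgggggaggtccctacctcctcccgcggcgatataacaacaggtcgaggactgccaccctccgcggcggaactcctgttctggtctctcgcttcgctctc
Krt5: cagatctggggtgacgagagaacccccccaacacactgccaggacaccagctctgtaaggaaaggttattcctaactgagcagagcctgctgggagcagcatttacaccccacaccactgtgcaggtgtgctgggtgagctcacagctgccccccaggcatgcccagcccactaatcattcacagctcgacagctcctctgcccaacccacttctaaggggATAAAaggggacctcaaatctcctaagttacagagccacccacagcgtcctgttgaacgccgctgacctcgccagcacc
Krt10: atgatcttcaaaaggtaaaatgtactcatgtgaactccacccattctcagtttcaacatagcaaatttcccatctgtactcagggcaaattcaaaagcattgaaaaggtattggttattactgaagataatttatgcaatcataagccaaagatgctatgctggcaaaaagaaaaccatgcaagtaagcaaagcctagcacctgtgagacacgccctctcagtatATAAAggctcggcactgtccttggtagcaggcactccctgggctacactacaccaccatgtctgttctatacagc
In the Krt5 window the letters ATAAA begin 29 bases before the RefSeq start, and in the Krt10 window 25 bases before it. The RefSeq start of Krt8 lies 140 bases downstream of the start of Krt8-201, so its match, which begins at the RefSeq start, lies inside the GENCODE transcript. The Krt18 window, whose start lies 36 bases downstream of that of Krt18-201, holds none. A search of bases 16 to 40 before the start, on the gene strand, found TATAAA, the TATA box core, in 13 of 37 keratin windows (35.1%), against 1.99% of all 32851 mouse windows. The shorter ATAAA, which every TATAAA contains, was there in 20 of 37 (54.1%), against 4.25% of all windows. In the 25 windows near a GENCODE start, a limit chosen after these windows were seen, the longer motif was there in 9 (36.0%) and the shorter in 15 (60.0%). GGGCGG, searched in the whole window on both strands, was in 2 of 37 keratin windows (5.41%) and 35.7% of all windows. TGANTCA, the AP-1 consensus, was in 5.41% of keratin windows and 7.81% of all, and GCCNNNGGC, a form of the AP-2 consensus, in 18.9% and 16.6%, both on either strand. A match is a string of letters and was not tested as a binding site.

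Coding sequences of neighbouring members can be alike over whole reads. Krt14 and Krt17 are identical over 71 bases in the later part of their coding sequence, printed here 5′ to 3′ with the 14 bases that Krt18 also holds in capitals.
Krt14 and Krt17: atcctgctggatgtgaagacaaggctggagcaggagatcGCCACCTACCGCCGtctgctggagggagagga
This run is shorter than a read of 76 bases. Of the 1378 pairs of members, 20 held an identical coding run of 76 bases or more. The longest runs lay mostly among hair keratins: 374 bases between Krt81 and Krt86, 295 between Krt33a and Krt34, and 240 for Krt31 with Krt33a and with Krt34. Outside the hair class the longest were 280 bases between Krt6a and Krt6b, 140 between Krt5 and Krt6a and 134 between Krt14 and Krt16. Between a type I and a type II gene the longest run was 23 bases. In GENCODE M21, 33 of the 53 members shared no 76-base word with any other gene, and these include Krt17, Krt18, Krt7, Krt19 and Krt10. The other 20 did, among them Krt6b (39.2% of its words), Krt6a (38.3%), Krt86 (33.2%), Krt81 (30.5%), Krt16 (28.7%) and Krt8 (21.8%, all with the processed pseudogene Krt8-ps). The share was 5.59% for Krt14 and 5.04% for Krt5. How shared fragments were divided is not given in the sources used here, so the levels of these 20 genes carry an uncertainty beyond counting error.

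Most keratins were low. A mean of at least 1 TPM was reached by 18 of 53 keratins (34.0%), against 60.3% of protein-coding genes, and the median keratin stood at 0.63 TPM, against 3.29 TPM for protein-coding genes. By mean level, 4 keratins stood at 100 TPM or more, 6 at 10 or more, 12 between 1 and 10, 24 between 0.1 and 1, and 11 below 0.1 TPM. Keratins as a whole made up 0.0792% of all TPM in replicate 1 and 0.0893% in replicate 2, summing to 792 and 893 TPM. Because the libraries are bulk tissue, fewer cells of a type and less RNA per cell cannot be told apart for any of these values. Only Krt88 had 0 fragments in both libraries, which allows up to 3 fragments in each, or 0.0618 CPM in replicate 1 and 0.0483 CPM in replicate 2. It and 3 other members lay under 3 fragments in both libraries.

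**Figure D1:**
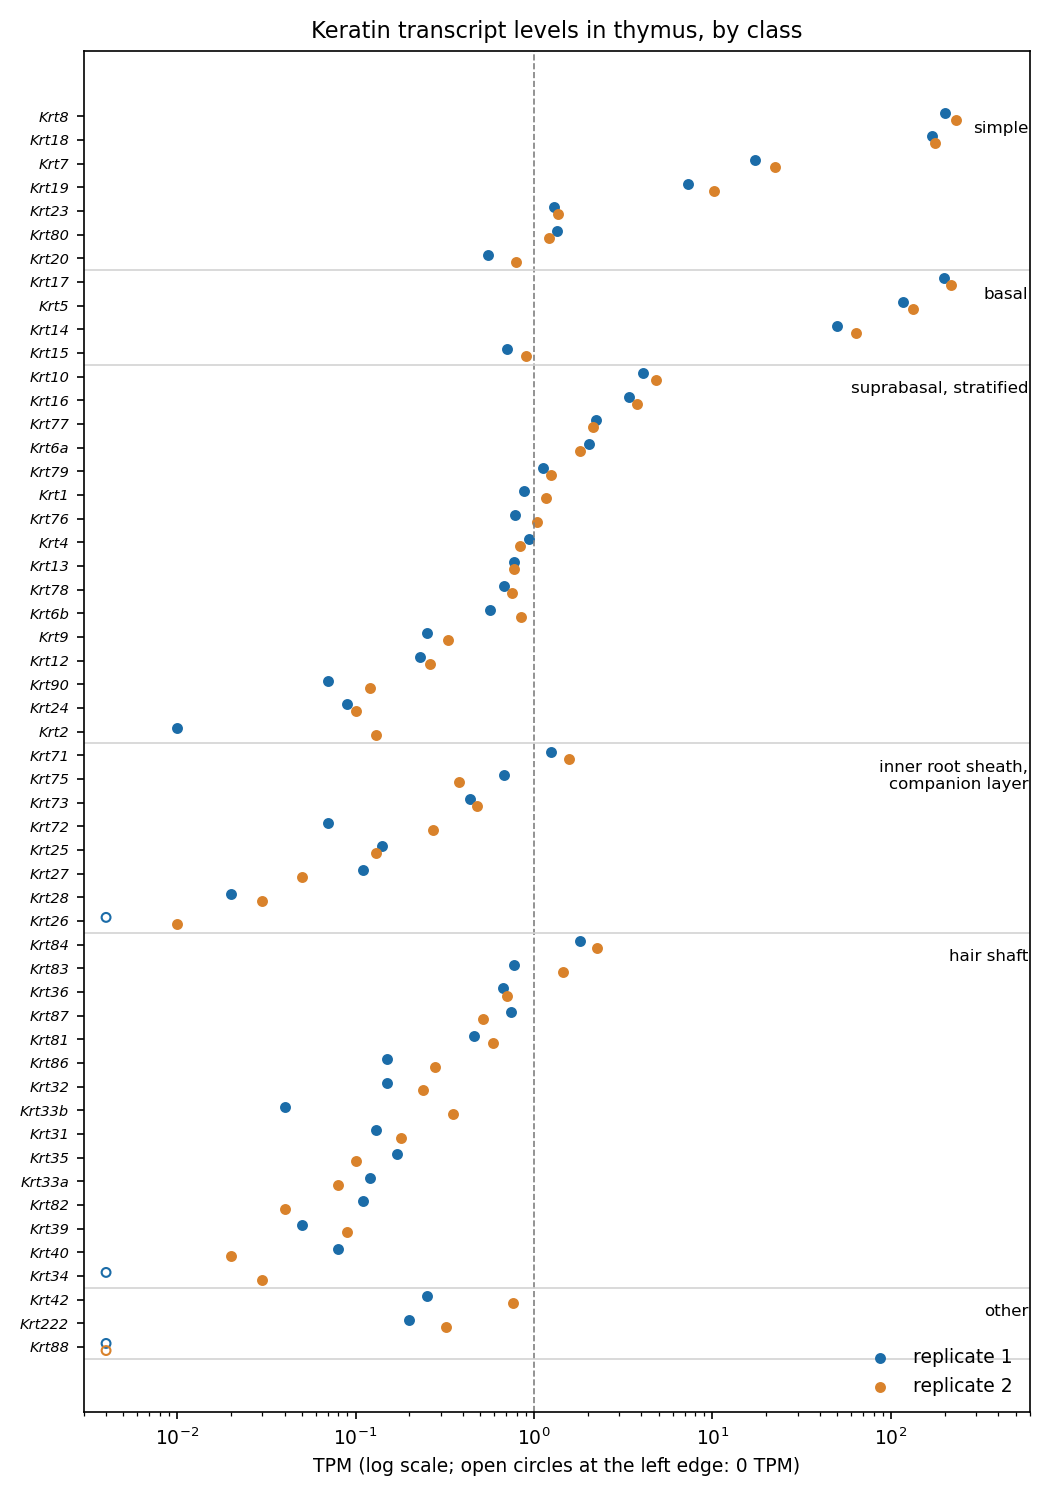
TPM of each of the 53 keratins (log scale) in replicate 1 (blue) and replicate 2 (orange), grouped by class and ordered by mean level within it; open circles mark 0 TPM and the dashed line 1 TPM. Krt8, Krt18, Krt17, Krt5 and Krt14 stand apart at 50.0 TPM or more in each library, and most hair and sheath keratins lie below 1 TPM.

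Krt8 and Krt18, the primary pair of simple epithelia and the pair associated with thymic cortex, were both among the 3 highest members. Krt8 (chromosome 15, 101996698 to 102004482) had 200.82 TPM in replicate 1 and 232.41 TPM in replicate 2, a mean of 217 ± 22.3 TPM (each ± is an SD over the 2 libraries, n = 2). Krt18 (chromosome 15, 102028180 to 102032027) had 169.85 and 177.46 TPM, a mean of 174 ± 5.38. Krt8 lay above 97.2% of protein-coding genes by mean level and Krt18 above 96.2%. The rest of the simple class was far lower. Krt7, the type II keratin of ducts and mesothelium, had 17.38 TPM in replicate 1 and 22.28 TPM in replicate 2. Krt19, a type I keratin of ducts that lacks most of the tail domain, had 7.32 and 10.2 TPM. Both were lower in replicate 1, and the ranges of these 2 genes did not overlap. Krt23, an acidic keratin of simple epithelia, had 1.29 and 1.37 TPM, and Krt80, a keratin of maturing epithelial cells, 1.35 and 1.22 TPM. The intestinal and urothelial keratin Krt20 was the only one of the 7 simple keratins below a mean of 1 TPM, at 0.55 and 0.79 TPM.

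The basal class was led by Krt17, not by Krt5 or Krt14. Krt17 (chromosome 11, 100256217 to 100261029), known from hair follicles and from skin under repair, had 198.97 TPM in replicate 1 and 217.63 TPM in replicate 2, a mean of 208 ± 13.2 TPM. Krt8 was the higher of the 2 in each library. The authors' deposited bounds of the genes overlapped in replicate 1 (195 to 202 TPM for Krt8, 193 to 201 for Krt17) and were apart in replicate 2 (227 to 234 and 212 to 220 TPM). Krt5 (chromosome 15, 101707070 to 101712898), the basal type II keratin, had 117.4 and 133.63 TPM, a mean of 126 ± 11.5. Krt14 (chromosome 11, 100203162 to 100207548), its usual type I partner, had 50.0 and 63.54 TPM, a mean of 56.8 ± 9.57. From Krt17 down to Krt77, every neighbour in the order of levels (Krt17, Krt18, Krt5, Krt14, Krt7, Krt19, Krt10, Krt16, Krt77) had a range apart from the next. Krt15, a basal keratin of follicle stem cells, was far below Krt5, at 0.71 and 0.9 TPM.

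Keratins of the suprabasal and stratified layers were detectable but low, with 6 of 16 at a mean of at least 1 TPM and a highest mean of 4.46 TPM. Krt10, the type I keratin of cornifying epidermis, had 4.07 TPM in replicate 1 and 4.84 TPM in replicate 2. Its partner Krt1 had 0.88 and 1.17 TPM. Krt16, induced in stressed and palm skin, had 3.41 and 3.8 TPM, and its partner Krt6a 2.04 and 1.82 TPM. Krt77, which in humans marks sweat gland ducts, had 2.22 and 2.15 TPM, and Krt79, a mouse keratin of the hair canal and sebaceous duct, 1.12 and 1.25 TPM. From Krt77 downwards to Krt1 the ranges of neighbours in level overlapped, except for Krt6a above Krt71. Just under 1 TPM stood Krt76, a keratin of the palate (0.78 and 1.04 TPM), and the mucosal pair Krt4 (0.94 and 0.84 TPM) and Krt13 (0.77 TPM in each). The value of Krt13 is uncertain, since the authors' deposited posterior mean, a second estimate of the same level, was 10.08 TPM in replicate 1 and 8.44 TPM in replicate 2. The authors' deposited upper bounds for it were 28.4 and 23.8 TPM. All of its TPM was assigned to the protein-coding transcript Krt13-201, and none to a processed transcript of 512 bases or a retained-intron transcript of 207 bases.

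Hair keratins were low, with a few exceptions above 1 TPM. The 15 hair shaft keratins summed to 5.46 TPM in replicate 1 and 6.94 TPM in replicate 2, and 2 of them reached a mean of 1 TPM. Krt84, a type II hair keratin also found in tongue papillae, had 1.82 and 2.26 TPM, or 150 and 259 fragments. Krt83, a type II keratin of the hair cortex, had 0.77 and 1.45 TPM from 31 and 82 fragments, and 11.7% of its 76-base words are shared with other hair keratins. The 8 keratins of the inner root sheath and companion layer summed to 2.71 and 2.93 TPM. Krt71, of the inner root sheath, was the only one of them at 1 TPM, with 1.25 and 1.58 TPM. Krt222 and Krt42, placed in a class of other keratins, stayed below 1 TPM. Of the 6 skin and hair genes outside the family, 1 reached a mean of 1 TPM, Krtdap, at 9.96 and 14.46 TPM. Among the others, Flg, filaggrin, was at 0 in both libraries, Hoxc13, a regulator of hair keratins, at 0.01 and 0.02 TPM, and Lor, loricrin, at 0.6 and 0.54 TPM. Tchh stood at 0.12 and 0.17 TPM, and Flg2 at 0.03 TPM in each library.

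By class, simple keratins made up 50.3% of keratin TPM in replicate 1 and 49.9% in replicate 2, a mean of 50.1 ± 0.256%. Basal keratins made up 46.3% and 46.6%, a mean of 46.4 ± 0.174%. Krt17, known from hair follicles and skin under repair, is counted in this class and was its largest member. Suprabasal and stratified keratins made up 2.29% and 2.27%, hair shaft keratins 0.689% and 0.778%, and sheath keratins 0.342% and 0.328%. These shares differed little between the libraries, although the summed level itself was lower in replicate 1. Counted as fragments, Krt8 alone took 26.2% of the 42705 keratin fragments of replicate 1 (95% exact binomial interval 25.8 to 26.6) and 26.7% of the 67197 of replicate 2 (26.4 to 27.0). Krt17 took 21.8% and 21%, Krt5 19.0% and 19.1%, and Krt18 16.5% and 15.2%. Krt14 took 5.66% and 6.38%, Krt7 5.21% and 5.89%, and Krt19 0.817% and 1.0%. Such intervals cover counting error only.

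Since filaments need both types, the type I and type II sums were set side by side. Type I genes summed to 439 TPM in replicate 1 and 485 TPM in replicate 2, and type II genes to 353 and 408 TPM. The ratio of type I to type II was 1.25 and 1.19, and type I genes made up 54.9 ± 0.812% of keratin TPM. Which type is larger depends on scaling by length: as CPM, counts scaled to depth but not to length, the type I share was 46.0%. Within the simple class the ratio was below 1, at 0.815 and 0.742, and within the basal class above 2, at 2.13 and 2.11. In the suprabasal class it was 0.947 and 0.998. The basal ratio counts Krt17 as basal, and Krt14 over Krt5 alone was 0.426 and 0.475.

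**Figure D2:**
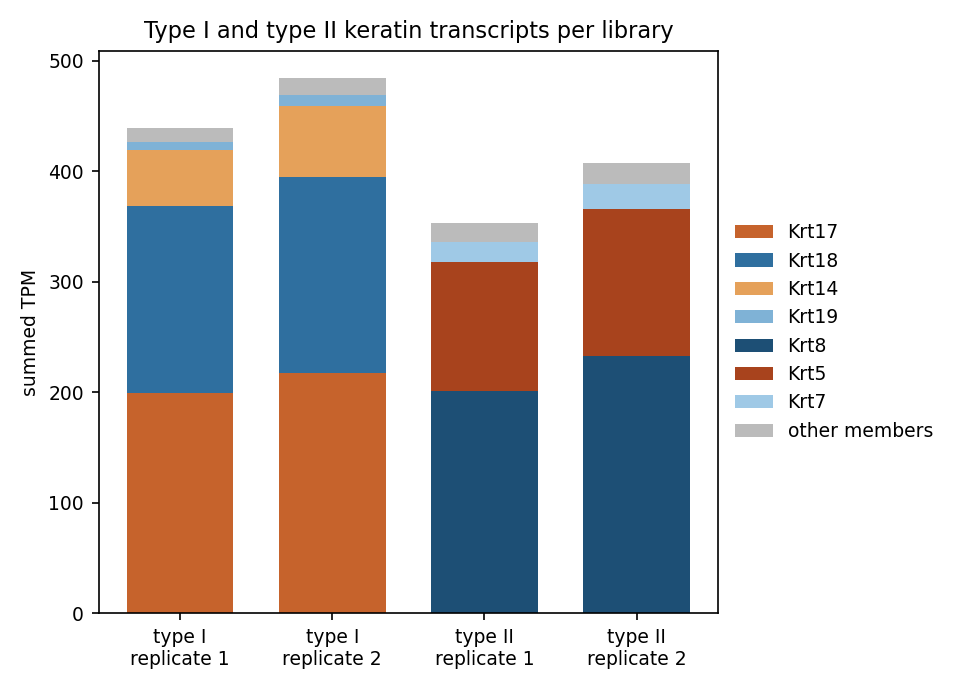
Summed TPM of type I and type II keratins in each library, stacked by gene, with blues for simple and oranges for basal keratins and grey for the other members. Type I genes sum to 439 TPM in replicate 1 and 485 in replicate 2 and type II genes to 353 and 408, and Krt17 is the largest type I block in both libraries.

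Single pairs differed widely in balance. Krt18 over Krt8 was 0.846 in replicate 1 and 0.764 in replicate 2, a modest excess of the type II partner. Krt14 over Krt5 was 0.426 and 0.475, so Krt5 had more transcript than its usual partner in each library, while Krt17, which can also pair with Krt5, exceeded both. Krt10 over Krt1 was 4.62 and 4.14, and Krt16 over Krt6a 1.67 and 2.09. Krt13 over Krt4 was 0.819 and 0.917. On the posterior mean TPM its mean log2 ratio was 3.38, against -0.21 on TPM, so its direction was not resolved. Krt19 over Krt7 was 0.421 and 0.458, Krt19 over Krt8 0.0365 and 0.0439, and Krt15 over Krt5 0.00605 and 0.00674.

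Along the clusters, high members did not all lie together, though Krt8 and Krt18 were neighbours. On chromosome 11, 6 of 27 genes reached a mean of 1 TPM, and Krt14, Krt16 and Krt17 lay next to each other at one end of the cluster. On chromosome 15, 12 of 26 did. Krt5 lay between Krt6a and Krt71, which were at 1.93 and 1.42 TPM on average, against 126 TPM for Krt5. Krt8 lay between Krt78, at 0.715 TPM, and Krt18. A run of hair keratins between Krt39 and Krt36 on chromosome 11 stayed below 1 TPM.

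**Figure D3:**
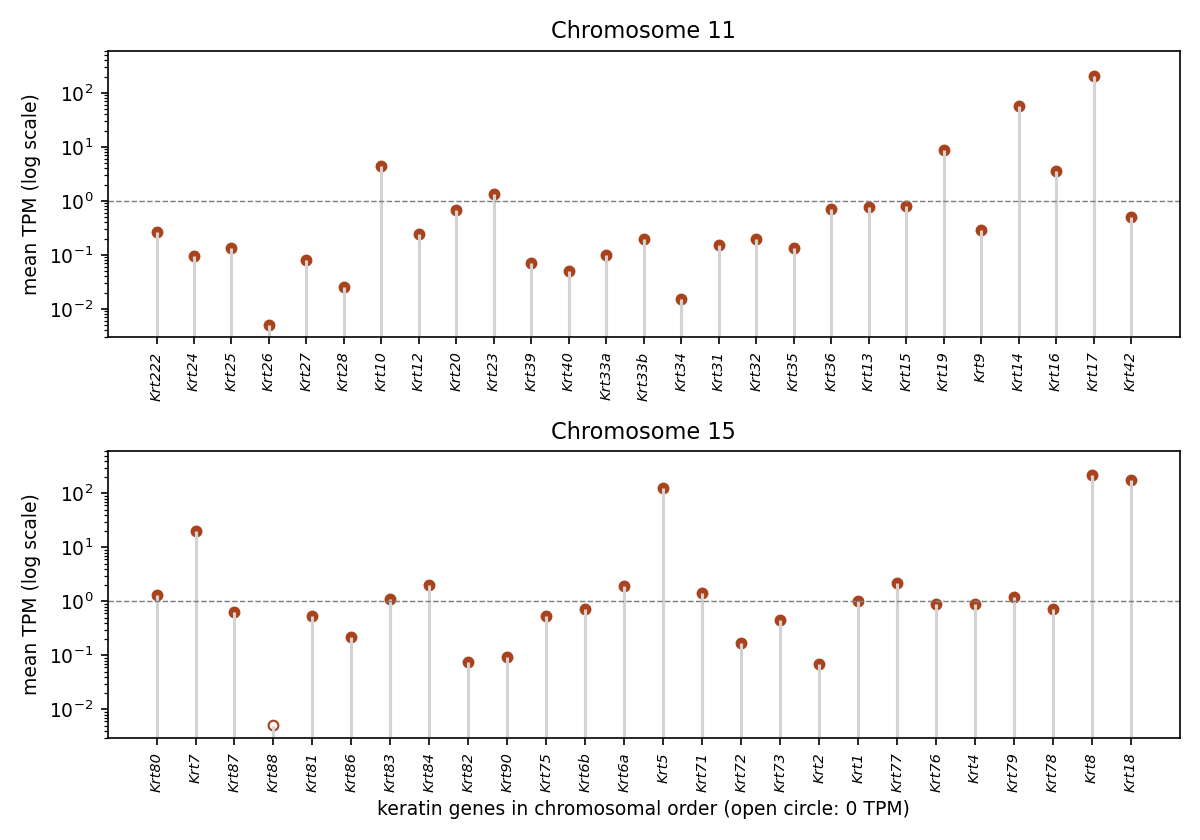
Mean TPM of the 2 libraries (log scale) for each keratin in chromosomal order, for the clusters on chromosome 11 (27 genes) and chromosome 15 (26 genes); the dashed line marks 1 TPM and the open circle 0 TPM. Krt17 and Krt14 rise at one end of the chromosome 11 cluster, and Krt8 and Krt18 at one end of the chromosome 15 cluster, with Krt5 high between low neighbours.

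In the transcript tables, 38 members had 1 transcript and 15 had 2 or more. Krt8, Krt17, Krt18 and Krt5 have 1 each in these tables. Krt14-201, the coding transcript, took 82.8 ± 1.07% of Krt14, and the processed transcript Krt14-202 17.2 ± 1.07%. Krt7-201 took 72.8 ± 3.8% of Krt7, and the retained-intron transcript Krt7-202 24.4 ± 4.72%. In Krt83 the retained-intron transcript Krt83-202 took more than the coding one, 54.7 ± 1.53%, and in Krt42 the coding Krt42-201 took 50.7 ± 11.6%. In Krt19 and Krt15 the coding transcript took 100% in both libraries. Antisense genes overlap few members, and Gm11940, antisense to Krt10, held 1 fragment in replicate 1 and 4 in replicate 2, against 268 and 442 for Krt10. A830036E02Rik, antisense to Krt12, was closer to its partner, with 8 and 13 fragments, against 13 and 21 for Krt12.

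Spliced reads were set against the annotated exon structure of the members. The authors deposited splice junctions with a whole-number read count pooled over the libraries, on mm9. They were matched to 37 of the 53 members by the lengths of introns and exons alone, at 4 or more introns each, with no conversion of coordinates. Those introns had to be present among the deposited junctions, so members with few spliced reads could go unmatched. The highest of the 16 members not matched was Krt222, at a mean of 0.26 TPM. The 37 are thus a set chosen in part by having reads. By GENCODE M21 annotation, each of the 21 matched type II genes has 8 introns. Of the 16 matched type I genes, 12 have 7, and Krt19 has 5. These counts come from the annotation, not from the reads. Reads crossed every intron in 19 of the 37, and 0 reads skipped an exon between annotated ends in any of them. Junctions outside the matched transcript also held reads, from 0% of a gene's spliced reads in Krt19 to 17.4% (12 reads) in Krt78. In Krt14 they held 76 reads (2.52%), in Krt16 29 (11.4%) and in Krt80 14 (16.9%). Krt17 introns held 503 to 3108 reads, Krt18 introns 573 to 1824, Krt14 introns 198 to 842, Krt7 introns 85 to 516 and Krt19 introns 24 to 125.

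Krt8 and Krt5 each had introns with almost no reads. From the 5′ end, the 8 introns of Krt8 held 352, 8, 4, 870, 1465, 4632, 782 and 1438 reads. Introns 2 and 3 thus lay at 0.969% and 0.484% of the gene's median of 826 reads. Those of Krt5 held 15, 266, 680, 1746, 2702, 1249, 676 and 1100 reads, so intron 1 lay at 1.69% of the median. The low introns of each gene are at its 5′ side. The exon joins of Krt8 introns 2 and 6, with 8 and 4632 reads, are printed from its GENCODE M21 transcript as 38 bases of the exon before in lower case and 38 of the exon after in capitals.
Krt8 join 2: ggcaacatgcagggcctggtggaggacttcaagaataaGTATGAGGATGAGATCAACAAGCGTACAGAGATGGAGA
Krt8 join 6: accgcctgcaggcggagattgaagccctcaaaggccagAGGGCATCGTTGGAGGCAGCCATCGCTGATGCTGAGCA
The stretch of Krt8 join 2 is found whole in the processed pseudogene Krt8-ps, on chromosome 7, and that of join 6 in no other gene. Of the 76-base words that cross the join, those shared with another gene were 54.7%, 100% and 94.7% for Krt8 introns 1 to 3, 9.33% for intron 4 and 0% for introns 5 to 8. For Krt5 they were 74.7% at intron 1 and 0% at the others. Across the 9 keratins with a median of 20 or more reads per intron, 6 introns shared at least 50% of their words and lay at 0.484% to 104% of their gene's median (median 22.1%). The 55 introns with no shared word lay at 16.1% to 561%. Krt16 introns 4 and 5 shared all of their words with another gene and held 13 and 28 reads, 48.1% and 104% of its median. Whether the sharing of words accounts for the low introns was not tested.

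**Figure D4:**
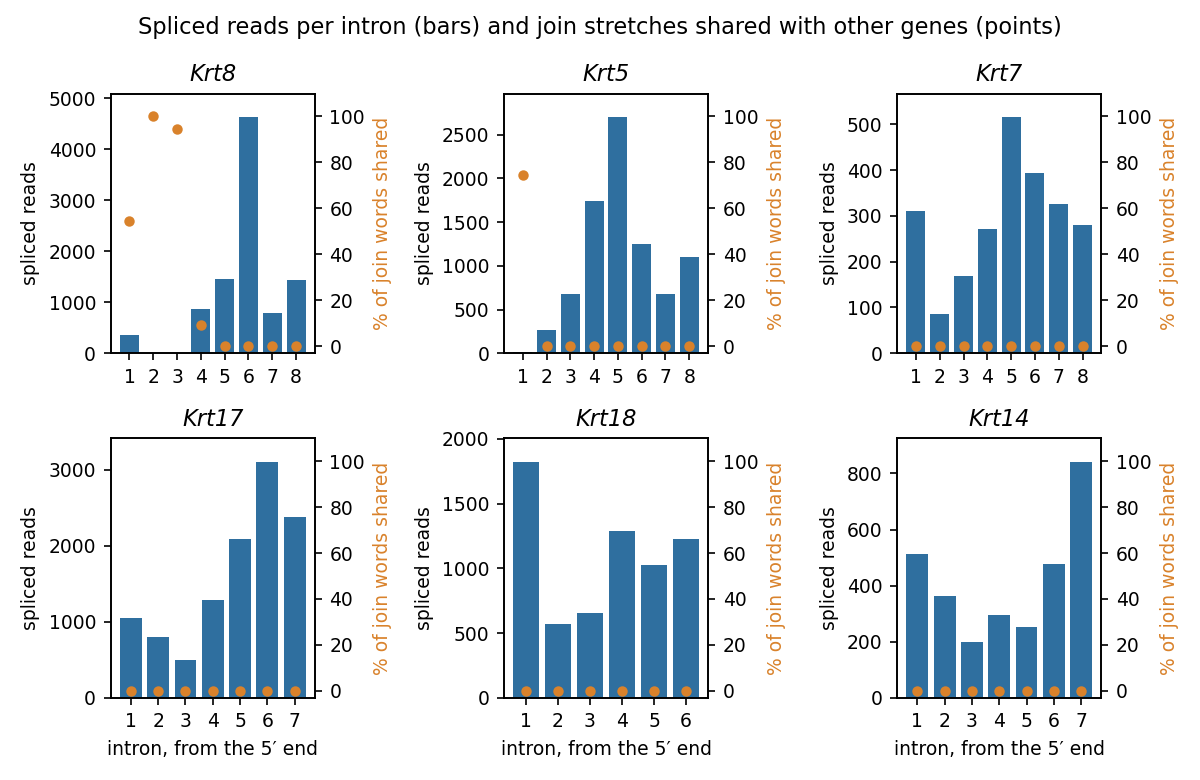
Spliced reads per intron from the 5′ end (bars, left axis, pooled over both libraries by the authors) and the percent of 76-base words across the exon join that another gene shares (points, right axis) for 6 keratins. Krt8 introns 2 and 3 and Krt5 intron 1 hold 4 to 15 reads and have 74.7% or more of their words shared, while Krt17, Krt18, Krt14 and Krt7 share none.

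Between the libraries, keratins were mostly lower in replicate 1, by small factors. Ratios are replicate 1 over replicate 2 on the log2 scale, from counts scaled by edgeR's TMM. Of 35 keratins with enough fragments to test, 29 (82.9%) were lower in replicate 1, against 50.8% of all 17198 genes tested. Their median log2 ratio was -0.25, against -0.0062 for all genes. Among the high members it was -0.52 for Krt19, -0.40 for Krt7, -0.39 for Krt14, -0.25 for Krt8, -0.23 for Krt5, -0.17 for Krt17 and -0.10 for Krt18. The other 18 members did not pass the filter on counts and enter none of these values.

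A two-sided exact binomial test compared the fragments of the 2 libraries, gene by gene over the whole table, with Benjamini-Hochberg adjustment. A gene was called where its adjusted p was under 0.05 and its log2 ratio was 1 or more in either direction. By this rule 1 of 35 keratins was called (2.86%), against 4.54% of all genes tested, and it was lower in replicate 1, against 3.32% of all genes tested for that direction. That gene was Krt42, known from the mouse nail, with 0.25 TPM and 10 fragments in replicate 1 and 0.76 TPM and 39 fragments in replicate 2. Its log2 ratio was -1.48, with an adjusted p of 0.00343 in the exact binomial test and 0.862 in edgeR's negative binomial test. Krt42 was thus called only by the test that covers counting error alone. The negative binomial test took its dispersion from these same 2 libraries, treated as 1 group. That dispersion takes in the differences under test, so a lack of calls by it cannot decide whether the libraries differ. With the negative binomial test 0 of 35 were called, against 1.27% of all genes tested, and 14 (40.0%) had an unadjusted binomial p under 0.05, against 56.3% of all genes tested. Without the fold minimum 12 of 35 keratins (34.3%) passed, against 52.0% of all genes tested. Of the 35, 11 (31.4%) passed and were lower in replicate 1, against 25.1% of all genes tested. Only 1 of the 35 (2.86%) passed and was higher, against 26.9% of all genes tested. It was Krt75, a companion layer keratin, at a log2 ratio of 0.81. The coefficient of variation that edgeR estimated between the libraries, treated as 1 group, was 0.215.

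**Figure D5:**
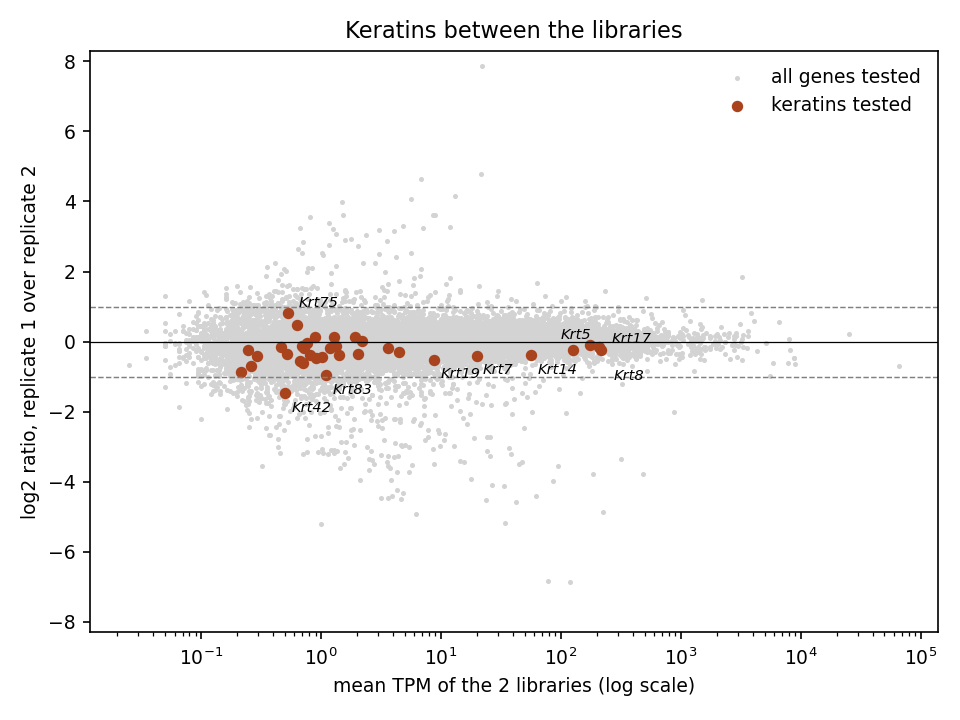
Log2 ratio of replicate 1 over replicate 2 against mean TPM (log scale) for the 17198 genes tested (grey) and the 35 keratins among them (brown); dashed lines mark a log2 ratio of 1 and -1. Of the keratins 29 lie below 0, and Krt42 lies below -1 at -1.48.

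Marker genes of thymic and other cell types are set beside the keratins. The 5 thymocyte genes (Ptprc, Cd3e, Cd4, Cd8a and Rag1) were all detected and summed to 2000 TPM in replicate 1 and 1850 TPM in replicate 2. Cortical epithelium genes outside the family (Foxn1, Psmb11, Prss16, Ly75 and Ccl25), all 5 detected, summed to 776 TPM in replicate 1 and 1090 TPM in replicate 2, with a median log2 ratio of -0.348. Most of these sums came from Prss16, at 536.72 and 800.93 TPM. The log2 ratio was -0.56 for Prss16, -0.40 for Psmb11, -0.35 for Ccl25, -0.22 for Ly75 and -0.16 for Foxn1, and none was called. The 5 medullary genes (Aire, Fezf2, Ccl21a, Cldn3 and Cldn4) summed to 526 and 585 TPM, with a median of -0.0522. Most of these sums came from Ccl21a, at 379.64 and 437.47 TPM. The pan-epithelial genes Epcam (19.99 and 15.68 TPM) and Cdh1 (19.64 and 18.49 TPM) were not lower in replicate 1. Mesothelium, a lining that also uses Krt7, Krt8, Krt18 and Krt19, showed a larger difference: its 5 markers summed to 23.7 and 44.2 TPM, and Upk3b (7.84 and 19.4 TPM), Wt1 (1.56 and 3.05) and Upk1b (1.06 and 2.15) were called lower in replicate 1 by the exact binomial test described above, which covers counting error alone. That is 3 of 5, against 3.32% of all genes tested. Msln (7.06 and 9.55 TPM) and Lrrn4 (6.2 and 10.01 TPM) were also lower in replicate 1 but were not called. Skin and hair genes summed to 10.7 and 15.2 TPM, nearly all from Krtdap, a gene of differentiating keratinocytes, at 9.96 and 14.46 TPM. Of the parathyroid list, which summed to 7.85 and 15.3 TPM, Pth was called lower in replicate 1 at 2.33 and 5.96 TPM. That is 1 of 3 tested by the same test, against 3.32% of all genes tested. Chga (4.69 and 8.52 TPM) and Casr (0.77 and 0.79 TPM) were not called, and Gcm2, at 0.06 TPM in each library, was not tested. The thyroid genes Tg, Tshr and Nkx2-1 summed to 2.44 and 2.64 TPM. Squamous mucosa genes, Krt4 and Krt13 among them, summed to 2.47 and 2.66 TPM. The others on that list were Tgm3 (0.65 and 0.64 TPM) and Sprr3 (0.11 and 0.41 TPM). The part of these cells in the keratin values was not tested.

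Genes that work with keratins were present in most lists. Of the 20 desmosome and hemidesmosome genes, which anchor keratin filaments at the cell surface, 16 reached 1 TPM, against 60.3% of protein-coding genes. The highest were Jup, plakoglobin, at 184.23 TPM in replicate 1 and 175.04 TPM in replicate 2, Cd151 at 94.26 and 123.85, Plec, a plakin that binds the filaments, at 63.65 and 50.6, Pkp3 at 39.05 and 40.95, and the integrin chain Itga6 at 32.54 and 30.35 TPM. Of 19 tested, 2 were called by the exact binomial test, against 4.54% of all genes tested, both lower in replicate 1: Pkp2, plakophilin 2, at 0.99 and 3.57 TPM, and Dsg3, a desmoglein of basal layers, at 0.09 and 0.2 TPM. Dsp, desmoplakin, the link between desmosomes and keratins, had 8.53 and 8.33 TPM. Of 9 keratin filament partners found, 7 reached 1 TPM, against the same 60.3%. They were led by the small heat shock protein gene Hspb1 (62.72 and 77.2 TPM), Sfn (50.69 and 52.0), Dnajb6 (37.11 and 33.27), Trim29 (26.47 and 29.73) and Fbf1 (25.11 and 23.88 TPM), and 0 of 9 were called by the same test. Which cells the transcripts of these lists came from was not tested.

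Of 16 regulators of keratin genes, 11 reached 1 TPM, against 60.3% of protein-coding genes, and 0 of the 14 tested were called, against 4.54% of all genes tested. Gata3, which thymocytes also use, led them at 103.52 TPM in replicate 1 and 67.77 TPM in replicate 2. Foxn1, the regulator that thymic epithelium needs to form, had 22.66 and 24.65 TPM, and Trp63, the p63 factor of stratified epithelia, 14.23 and 18.24 TPM. Klf4 had 9.44 and 7.91 TPM and Ehf 4.04 and 5.67 TPM. The list for the cornified envelope, the protein shell of dead keratinocytes, also holds genes of differentiating keratinocytes such as Krtdap. Of its 21 genes, 10 reached 1 TPM, against 60.3% of protein-coding genes, with a list median of 0.645 TPM. By the test, 0 of the 15 tested were called, against the same 4.54%. The 5 highest were Sprr1a, an envelope precursor, at 25.26 and 27.22 TPM, Dmkn at 22.01 and 28.05, Cnfn at 11.97 and 16.65, Krtdap, and Sbsn at 7.12 and 6.46 TPM. These 5 stood above Krt10 and Krt1, the keratins of the same layers, while the list median lay below both, and Ivl, involucrin, stood at 0.23 and 0.21 TPM.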

How the data were processed

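The authors deposited, for each of 2 thymus libraries, gene and transcript tables with expected counts (estimated fragments per feature, not normalized), TPM and posterior mean TPM, per the file headers. The build was mm10 with GENCODE M4 annotation, per the deposited text files. The software for alignment and quantification was not given in the sources used here. The percent of each gene's TPM that each transcript takes was also deposited by the authors. The authors deposited whole-number counts of spliced reads per junction on mm9, pooled over the libraries, and 2 per-replicate entries in the junction names were not used. Depth was 49.3 and 63.1 M fragments over 69691 features, and 48.6 and 62.1 M over 43346 genes.

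Gene names, classes and positions came from GENCODE M21 (GRCm38), joined by unversioned gene ID for 42462 genes (98.0%). Expected counts were rounded for the exact binomial test (R 4.3.3, edgeR 4.0.16 TMM sizes, filterByExpr), which covers counting error between these libraries only, not spread among replicates. The test was checked on simulated Poisson counts, which hold counting error only, so the check does not cover spread among replicates. Counts of the 2 libraries differed by a median chi-square of 6.44 over the genes tested, so they are not 1 library deposited again, but this does not show that they come from separate animals. Shared words were the 76-base words of GENCODE M21 transcripts found in another gene. Alternatives were posterior mean TPM, CPM, other detection limits, DESeq2 1.42.0 size factors, no filter, no fold minimum, a negative binomial test, log2(TPM + 0.1), log2(TPM + 1) and each library left out. Tables were read with pandas 2.3.3 and numpy 2.4.6 in Python 3.11.15, intervals came from scipy 1.17.1 and plots from matplotlib 3.10.9. Keratins named were all with a mean of at least 1 TPM, all called between the libraries and the partners of classic pairs, plus, from each other gene list, the 5 highest and any called; members outside this rule, and Dsp, Ivl, Flg, Hoxc13 and Lor from the lists, were named after their values were seen. A marker gene and some sequences are not reported here. The members and the gene lists were chosen with earlier results of these data known.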

Additional observations from a re-analysis of the deposited data

How the results depend on the processing

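Detection of keratins depended on the limit: 18 reached a mean of 1 TPM, 30 reached 0.5 TPM and 11 reached 2 TPM. Leaving out 1 library gave 16 to 19. The type I share of 54.9% became 46.0% as CPM, which omits length, and lay at 54.3 to 55.5% with 1 library left out. The simple share of 50.1% was 49.6% on posterior mean TPM, 49.2% as CPM and 49.9 to 50.3% with 1 library left out. The basal share of 46.4% was 45.9%, 46.6% and 46.3 to 46.6% in the same order, and the suprabasal share of 2.28% was 3.28%, 2.9% and 2.27 to 2.29%. On posterior mean TPM the suprabasal share includes Krt13 at 10.08 TPM in replicate 1 and 8.44 TPM in replicate 2. The hair and sheath share of 1.07% was 1.27% as CPM and 1.03 to 1.11% with 1 library left out. Of the keratins tested, the 1 called between the libraries became 4 with no filter (Krt42, Krt33b, Krt72 and Krt2), 12 with no fold minimum and 0 with the negative binomial test, and remained Krt42 with DESeq2 size factors. The log2 ratio of Krt42 was -0.49 on log2(TPM + 1). As CPM, 20 of 26 single levels and pair ratios moved by more than the spread between the libraries, and 2 of 26 did on posterior mean TPM. Causes were not tested beyond what each setting changes by construction. No result with a call reversed its direction.

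No paired analysis was possible because the series holds 1 group of 2 libraries. Depth limits the lowest members: 4 keratins lay under 3 fragments in both libraries, and 18 were not tested between them.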

Other observations

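Intermediate filament genes other than keratins give a scale for the family. Of 16 such genes, 9 reached a mean of 1 TPM, against 60.3% of protein-coding genes. Vim, vimentin, the filament protein of mesenchymal and blood cells, had 753.78 TPM in replicate 1 and 650.04 TPM in replicate 2. This gene alone stood near the sum of all keratins in replicate 1, 792 TPM, and further below it in replicate 2, 893 TPM. The lamin genes Lmnb1 (155.46 and 63.55 TPM), Lmna (50.42 and 48.8 TPM) and Lmnb2 (44.15 and 34.86 TPM) followed, and Des, desmin of muscle, had 5.71 and 24.92 TPM. Lmnb1 was called higher in replicate 1 and Des lower by the exact binomial test, at log2 ratios of 1.27 and -2.19. That is 1 of 16 in each direction, against 1.22% of all genes tested called higher and 3.32% called lower. The test covers counting error alone, and the other 14 were not called.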
